A study of Mus musculus with 24 samples.

Results

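Chromatin accessibility after lipopolysaccharide (LPS) was compared between macrophages with and without the aryl hydrocarbon receptor (AhR), and the regions of open chromatin described here are those whose LPS response differed by genotype. The difference was measured as the genotype-by-LPS interaction, (AhR-KO LPS minus AhR-KO unstimulated) minus (WT LPS minus WT unstimulated), on the log2 scale. All 24 of the 24 ATAC-seq libraries entered it, in 4 groups of 6: WT unstimulated, WT LPS, AhR-KO unstimulated and AhR-KO LPS. ATAC-seq counts DNA fragments released where a transposase reaches open chromatin. Of 184158 consensus peaks, 174193 passed the filter on low counts. Of these, 171950 lay outside a window of 20 Mb on either side of the Ahr gene, and the 2243 peaks inside it (chromosome 12, 15.5 to 55.5 Mb, mm10) are given apart.

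Cells of all groups were bone marrow-derived macrophages (BMDMs) grown with 10% serum, 10 ng/ml GM-CSF and 2 ng/ml TGF-β, a culture that gives cells resembling alveolar macrophages. According to the study's methods, WT marrow came from C57/B6/J mice and AhR-KO marrow from B6.129-Ahr tm1Bra/J mice, a whole-body knockout, with age- and sex-matched animals from a single experiment. LPS groups received 97 EU/ml LPS for 24 h from day 6. A calcium ionophore followed at 5 µM for 10 min. The labels attach the LPS and ionophore text to every library, and the unstimulated groups were told apart by their own treatment label. Since the receptor was missing from the start of culture, an altered LPS response and an altered differentiation cannot be told apart. As the libraries were made from whole cultures, a change in the share of a cell type and a change in accessibility per cell cannot be told apart either.

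AhR sits in the cytoplasm as a receptor for small molecules, enters the nucleus after binding one, and pairs with ARNT to bind DNA at sites with the core GCGTG. Its best known targets are the xenobiotic-metabolising Cyp1 enzymes and its own repressor, Ahrr. LPS is sensed by TLR4, which drives NF-kB and AP-1 and, through TRIF and IRF3, type I interferon. Interferon in turn induces the interferon-stimulated genes. Chromatin that opens or closes during this response marks enhancers and promoters in use.

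Values for single peaks are CPM, counts per M (mega) of the library total in consensus peaks after TMM (trimmed mean of M values) scaling, and LPS effects and interactions are log2 differences with their SE. A positive interaction means a higher LPS effect in AhR-KO than in WT, through more opening or less closing, and a negative one a lower LPS effect. A differentially accessible region (DAR) changed by 1.5-fold or more with an adjusted p no higher than 0.05 (1.5-fold is 0.58 on the log2 scale). Interaction DARs with an LPS DAR in at least 1 genotype were called weaker or stronger by which genotype had the larger absolute LPS effect, opening or closing by the sign of that effect, and reversed where LPS was a DAR in both genotypes with opposite signs. These classes describe the fitted effects and carry no test beyond that of the interaction.

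Total counts in peaks ran from 8.54 to 34.6 M. WT unstimulated replicate 5 was the shallowest library and the next was at 15.5 M. Macrophage genes were open at their transcription start site (TSS) in every group: 5 of 6 macrophage markers had a tested TSS peak, and their summed level was 94.5 to 108 CPM in WT unstimulated, 109 to 146 CPM in AhR-KO unstimulated, 90.3 to 100 CPM in WT LPS and 88.5 to 111 CPM in AhR-KO LPS. All 7 alveolar macrophage markers had one as well. Their summed level without LPS was 69.9 to 82.0 CPM in WT and 92.0 to 114 CPM in AhR-KO, with no overlap. With LPS it was 58.8 to 73.0 CPM in WT and 68.7 to 86.0 CPM in AhR-KO. No T or B cell marker had a tested TSS peak, and 2 of 3 NK cell, 2 of 5 neutrophil, 2 of 4 erythroid, 1 of 3 fibroblast and 2 of 3 epithelial markers had one. In WT without LPS the NK cell marker Klrb1c had a mean of 16.5 CPM and the neutrophil marker S100a8 of 20.2 CPM. Single macrophage markers had means of 11.5 to 24.2 CPM there, so an open TSS alone does not tell the cell type. Summed levels of the dendritic cell markers (3 of 4 with a TSS peak) were 29.1 to 46.2 CPM in WT LPS and 22.2 to 28.5 CPM in AhR-KO LPS, against 26.8 to 35.5 and 28.2 to 33.8 CPM without LPS. Kit, the mast cell marker with a TSS peak, had a mean of 11.1 CPM in WT and 4.79 CPM in AhR-KO without LPS, and of 14 and 5.92 CPM with it. No TSS peak of any marker was an interaction DAR, but only 3.61% of all TSS peaks outside the Ahr region were. The part of these cell types in the results was not tested.

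The sequences below are the central 300 bases (mm10, plus strand, 5′ to 3′) of peaks that stand for the response classes and to which the values further down refer. The first 6 are the peak with the smallest interaction p outside TSSs in each class outside the Ahr region, leaving out windows in a UTR and, for reversed closing, a peak near Mc2r that is given by its values only. Bst2 and Alox5 were added after their values were seen, as an interferon-induced restriction factor and the leukotriene enzyme with stronger opening and stronger closing. Capitals mark matches, on either strand, to any of 11 short motifs: the AhR core GCGTG, AP-1 TGANTCA, NF-kB GGAANTTCC, the interferon-stimulated response element (ISRE) GAAANNGAA, STAT TTCNNNGAA, PU.1 GAGGAAGT, C/EBP TTGCNNAA, the MAF site TGCTGAC, the E-box CACGTG, RUNX TGTGGT and the antioxidant response element (ARE) TGACNNNGC. The MAF site and the ARE can share the letters TGAC.
Ets1 (weaker opening, chr9:32925320-32925619): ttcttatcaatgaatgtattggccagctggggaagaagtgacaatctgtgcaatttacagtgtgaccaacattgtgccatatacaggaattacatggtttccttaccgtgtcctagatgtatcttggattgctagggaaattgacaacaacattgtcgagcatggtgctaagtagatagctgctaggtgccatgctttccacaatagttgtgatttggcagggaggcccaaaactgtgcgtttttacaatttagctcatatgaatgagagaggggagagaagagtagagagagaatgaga
Arhgef7 (weaker closing, chr8:11781770-11782069): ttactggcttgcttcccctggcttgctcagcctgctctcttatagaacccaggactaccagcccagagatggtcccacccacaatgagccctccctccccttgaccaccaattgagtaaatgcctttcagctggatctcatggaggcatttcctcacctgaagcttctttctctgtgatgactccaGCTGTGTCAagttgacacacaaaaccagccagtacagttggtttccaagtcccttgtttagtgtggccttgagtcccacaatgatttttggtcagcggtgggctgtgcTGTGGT
Rtraf (stronger opening, chr14:19836456-19836755): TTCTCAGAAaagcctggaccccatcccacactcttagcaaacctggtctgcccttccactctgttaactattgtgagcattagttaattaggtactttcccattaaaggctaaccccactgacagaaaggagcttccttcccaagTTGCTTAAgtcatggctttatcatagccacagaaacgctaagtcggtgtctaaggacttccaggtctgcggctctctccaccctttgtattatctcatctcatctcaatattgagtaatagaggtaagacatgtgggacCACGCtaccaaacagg
Fam53b (stronger closing, chr7:132799766-132800065): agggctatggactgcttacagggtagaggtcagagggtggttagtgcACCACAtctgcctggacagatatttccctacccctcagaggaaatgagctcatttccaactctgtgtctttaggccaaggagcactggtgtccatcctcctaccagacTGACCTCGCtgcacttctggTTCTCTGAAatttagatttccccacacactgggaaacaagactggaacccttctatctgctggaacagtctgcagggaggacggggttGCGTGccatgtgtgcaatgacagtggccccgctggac
4932438A13Rik (reversed opening, chr3:36788748-36789047): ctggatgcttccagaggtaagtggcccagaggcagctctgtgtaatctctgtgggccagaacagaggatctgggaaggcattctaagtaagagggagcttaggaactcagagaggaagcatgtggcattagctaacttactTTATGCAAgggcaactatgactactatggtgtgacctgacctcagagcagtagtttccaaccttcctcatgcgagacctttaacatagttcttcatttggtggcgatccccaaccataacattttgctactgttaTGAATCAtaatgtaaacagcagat
Adgb (reversed closing, chr10:10333543-10333842): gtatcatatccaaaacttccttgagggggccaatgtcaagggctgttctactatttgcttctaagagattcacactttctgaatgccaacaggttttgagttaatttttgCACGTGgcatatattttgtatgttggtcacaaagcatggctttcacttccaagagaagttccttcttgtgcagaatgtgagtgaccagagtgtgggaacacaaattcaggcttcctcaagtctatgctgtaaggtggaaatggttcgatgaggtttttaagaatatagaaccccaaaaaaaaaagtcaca
Bst2 (stronger opening, added, chr8:71535792-71536091): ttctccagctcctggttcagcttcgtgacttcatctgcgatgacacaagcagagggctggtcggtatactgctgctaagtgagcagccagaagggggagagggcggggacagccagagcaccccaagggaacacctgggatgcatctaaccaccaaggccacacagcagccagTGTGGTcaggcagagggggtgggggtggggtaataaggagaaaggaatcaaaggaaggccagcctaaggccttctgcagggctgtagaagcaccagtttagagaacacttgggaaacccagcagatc
Alox5 (stronger closing, added, chr6:116455825-116456124): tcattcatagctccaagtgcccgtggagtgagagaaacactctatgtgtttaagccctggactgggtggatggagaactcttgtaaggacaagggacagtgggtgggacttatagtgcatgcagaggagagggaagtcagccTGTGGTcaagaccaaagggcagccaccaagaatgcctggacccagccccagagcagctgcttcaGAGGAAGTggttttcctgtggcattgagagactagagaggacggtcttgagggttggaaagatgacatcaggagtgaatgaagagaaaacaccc
The window of the Ets1 peak held no match, that of Bst2 1 RUNX match, and that of Alox5 1 PU.1 and 1 RUNX match. AhR core matches lay in the Rtraf and Fam53b windows.

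LPS changed accessibility broadly in either genotype, and 18132 peaks (10.4% of the peaks tested) were interaction DARs, at which the size or sign of the change differed between the genotypes. Of them, 7985 (4.58% of the peaks tested) had a lower LPS effect in AhR-KO and 10147 (5.83%) a higher one, and this order turned to 9574 lower and 8660 higher when libraries were scaled by relative log expression. LPS DARs numbered 81911 in WT (47.0% of the peaks tested) and 85090 in AhR-KO (48.8%). Genotype DARs numbered 39347 without LPS (22.6%) and 46093 with LPS (26.5%). Most of the LPS response was thus shared in direction: of 64037 peaks that were LPS DARs in both genotypes, 63702 changed the same way, and LPS effects in the 2 genotypes correlated across peaks (Pearson r = 0.87, a description over peaks of the same libraries). Of the 102964 peaks with an LPS DAR in at least 1 genotype, 16.2% were interaction DARs. The median absolute interaction of the DARs was 0.99 (log2), with 8862 DARs at a fold of at least 2 and 1265 at a fold of at least 4.

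**Figure D1:**
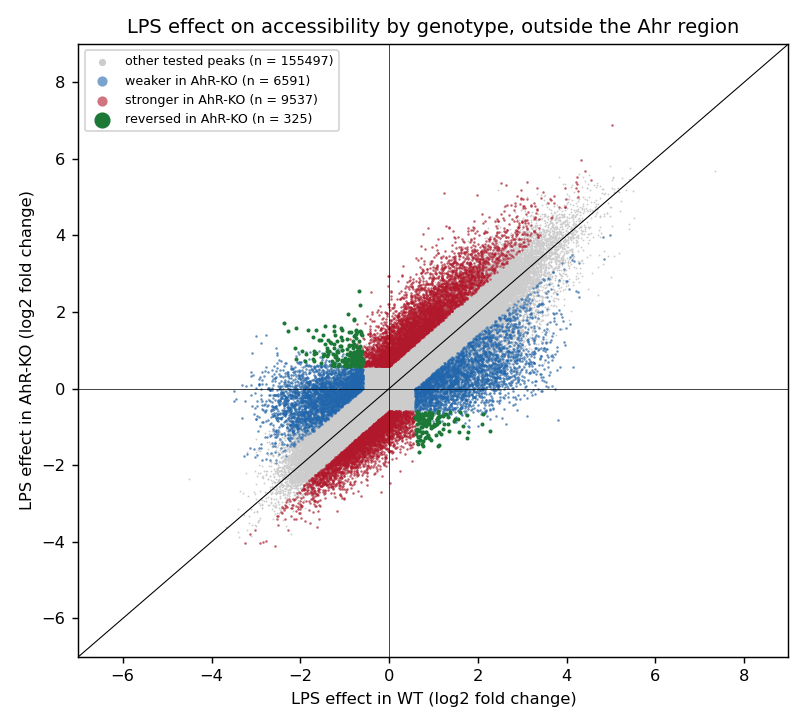
Each point is a peak tested outside the Ahr region, at its LPS effect in WT (x axis, log2 fold change) and in AhR-KO (y axis, log2 fold change), with the diagonal marking equal effects. Blue points mark the 6591 weaker, red the 9537 stronger and green the 325 reversed responses, while grey points include 1408 interaction DARs with no LPS DAR in either genotype.

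Outside the Ahr region, 17861 peaks were interaction DARs. The LPS response was weaker in AhR-KO at 6591 of them (36.9%), stronger at 9537 (53.4%) and reversed at 325 (1.82%). The remaining 1408 had no LPS DAR in either genotype. Stronger opening was the most frequent class, with 5604 peaks, followed by stronger closing with 3933, weaker closing with 3336 and weaker opening with 3255. The chromosomes other than X and Y carried 9.84 to 11.4% DARs, chromosome X 7.94% and chromosome Y 1 of 75 tested peaks.

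The classes differed in whether the genotypes were apart before or after LPS, which is a description, because these differences use the same libraries as the interaction. At weaker closing, AhR-KO was already the lower genotype without LPS at 2777 of 3336 peaks. The median LPS effect there was -1.43 in WT and -0.13 in AhR-KO. At weaker opening (median LPS effect 1.70 in WT and 0.31 in AhR-KO), the genotypes parted mainly after LPS, where AhR-KO was lower at 2132 of 3255 peaks, while at 922 peaks AhR-KO was higher without LPS. At stronger opening (0.62 and 1.69), AhR-KO was higher with LPS at 3091 of 5604 peaks and lower without LPS at 1570. At stronger closing (-0.47 and -1.35), AhR-KO was lower with LPS at 1681 of 3933 peaks and higher without LPS at 1223.

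Most of these peaks lay away from promoters. Of 13363 peaks over a TSS, 482 (3.61%) were interaction DARs, 334 lower and 148 higher, against 10.4% of all peaks outside the Ahr region. The median interaction of all TSS peaks was -0.05, and that of all peaks tested outside the region 0.04. Over a TSS lay 5.64% of stronger closing peaks, but 1.51% of weaker opening, 1.02% of weaker closing and 1.62% of stronger opening peaks, while 7.77% of all tested peaks did.

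Weaker opening was seen over the start of Il1a, the gene for the pro-inflammatory cytokine IL-1α. In WT, the peak (chromosome 2, 129309114 to 129312030) held 13.7 to 17.7 CPM without LPS (median 16.6) and 23.1 to 30.7 CPM with it (median 26.8). In AhR-KO it held 22 to 29.4 CPM (median 25.7) and 20.8 to 29.2 CPM (median 23.3). AhR-KO libraries without LPS lay above all WT libraries without LPS and overlapped the LPS libraries of both genotypes. The LPS effect was 0.73 ± 0.09 in WT and -0.04 ± 0.08 in AhR-KO, with an interaction of -0.77 ± 0.12 (adjusted p = 3.06e-05). The same arrangement was found over the start of Inpp4a, a phosphatase of phosphoinositides (chromosome 1, 37356349 to 37357598). Its level was 2.38 CPM (median; 1.56 to 2.91) in WT without LPS, 6.54 CPM (4.62 to 7.12) in WT with LPS, 4.87 CPM (4.28 to 6.15) in AhR-KO without LPS and 5.37 CPM (4.64 to 7.22) in AhR-KO with LPS, for an interaction of -1.34 ± 0.19 (adjusted p = 1.10e-05). An exonic peak of Tor1aip2, a protein of the endoplasmic reticulum and nuclear envelope, opened in both genotypes, by 1.94 ± 0.08 in WT and 0.75 ± 0.07 in AhR-KO, and AhR-KO was higher before LPS by 1.36.

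An intergenic peak 229 kb from the TSS of Ets1, a transcription factor of lymphoid and activated cells, showed the other form of weaker opening. In WT it held 12.4 to 16.1 CPM without LPS (median 15.4) and 24.7 to 28.2 CPM with it (median 25). In AhR-KO it held 12 to 15 CPM (median 13) and 10.3 to 12.9 CPM (median 11.8). Only the WT LPS libraries stood above the rest, and AhR-KO was lower with LPS by 1.13 on the log2 scale but not a DAR without it. The interaction was -0.96 ± 0.10 (adjusted p = 7.11e-08).

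Weaker closing was led by intronic peaks of Arhgef7, an exchange factor for Rac and Cdc42, and of Dst, which encodes the cytoskeletal linker dystonin. The Arhgef7 peak (chromosome 8, 11781462 to 11782377) held 4.19 to 8.78 CPM in WT without LPS (median 7.79) and 2.83 to 3.10 CPM with it (median 2.95). In AhR-KO, it held 1.53 to 2.70 CPM (median 1.96) and 2.23 to 3.09 CPM (median 2.56). The WT libraries without LPS lay above all others, and AhR-KO began below the level that WT reached after LPS. The LPS effect was -1.29 ± 0.13 in WT and 0.41 ± 0.15 in AhR-KO (interaction 1.70 ± 0.20, adjusted p = 3.00e-07). For Dst the interaction was 1.75 ± 0.21, with median levels of 7.53 and 2.82 CPM in WT without and with LPS and of 2.10 and 2.72 CPM in AhR-KO. Over TSSs, the leading peaks were those of the bitter taste receptor gene Tas2r138 (interaction 1.02 ± 0.17) and of Themis3, a member of the Themis family (1.74 ± 0.35). Both are low peaks, and Themis3 was called as a peak in 2 of 6 WT unstimulated libraries and in no library of the other groups.

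At the stronger opening peak with the smallest p outside TSSs and the Ahr region, AhR-KO started from a nearly closed state and opened with LPS, though every AhR-KO LPS library stayed below every WT LPS library. The peak is intergenic, 12.8 kb from the TSS of Rtraf, a factor of RNA transcription and transport. It held 4.19 to 7.38 CPM in WT without LPS (median 5.42) and 7.49 to 9.80 CPM with it (median 8.19), but 0.379 to 0.652 CPM in AhR-KO without LPS (median 0.532) and 4.97 to 7.31 CPM with it (median 5.47). The LPS effect was 0.60 ± 0.12 in WT and 3.41 ± 0.16 in AhR-KO, for an interaction of 2.80 ± 0.21 (adjusted p = 3.33e-11). The peak was called in 0 of 6 AhR-KO libraries without LPS and in 6 of 6 of each other group.

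An intronic peak of Bst2, which encodes tetherin, an interferon-induced factor that holds budding viruses at the cell surface, followed the same course (chromosome 8, 71535615 to 71536268). In WT it held 5.08 to 8.57 CPM without LPS (median 6.83) and 6.49 to 10.7 CPM with it (median 8.92), which overlap. In AhR-KO it held 1.52 to 2.15 CPM (median 1.67) and 8.73 to 11.7 CPM (median 9.57). All AhR-KO libraries without LPS lay below every other library, and with LPS the genotypes overlapped. The interaction was 2.15 ± 0.19 (adjusted p = 1.03e-09). Over the start of Tjp1, which encodes the tight junction protein ZO-1, the LPS effect was 0.60 ± 0.08 in WT and 1.76 ± 0.09 in AhR-KO. AhR-KO was lower by 1.33 before LPS there, with a genotype difference of -0.17 after it.

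**Figure D2:**
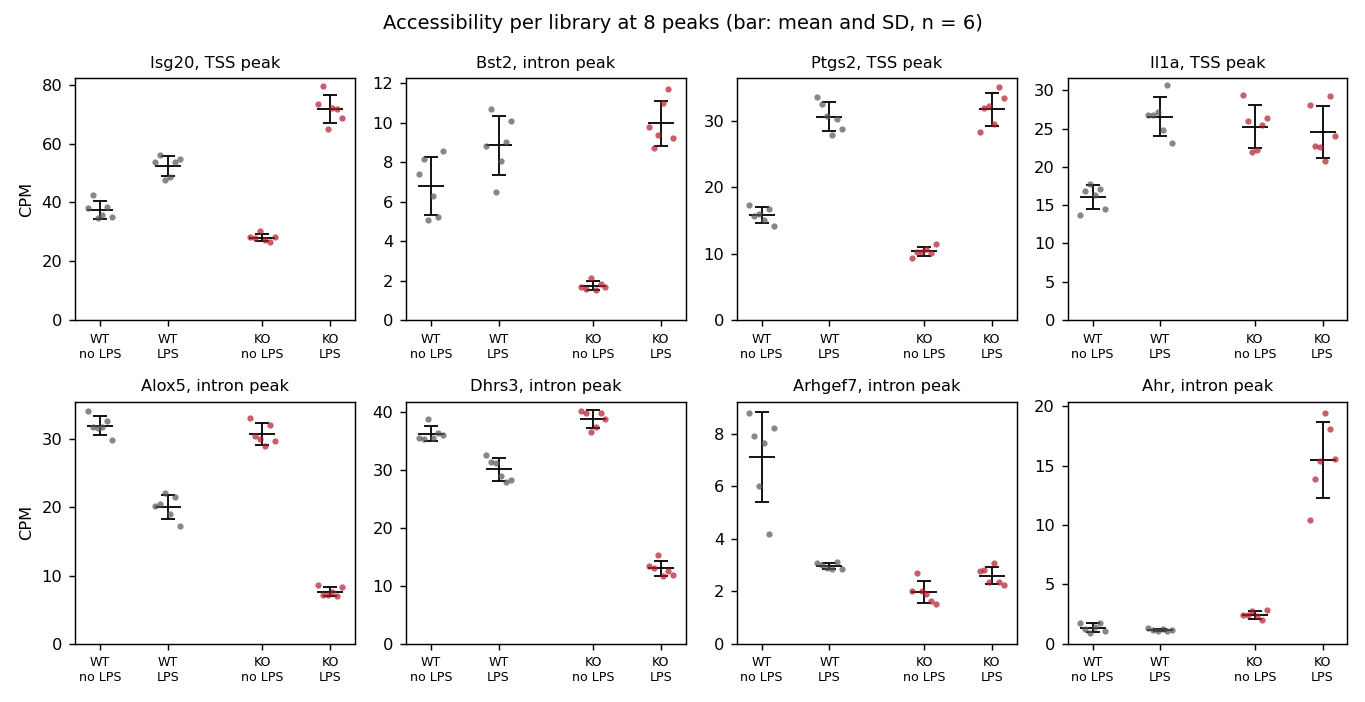
CPM of each library at 8 peaks, with 6 libraries a group (grey WT, red AhR-KO; horizontal bar and whiskers, mean and SD), all y axes starting at 0. At the Isg20 TSS peak the 4 groups do not overlap, with AhR-KO lowest without LPS (26.4 to 30.2 CPM) and highest with it (65.1 to 79.5 CPM). At the Dhrs3 peak only AhR-KO LPS falls far below the rest. At the Alox5 peak AhR-KO LPS is the lowest group, and WT LPS also lies below both groups without LPS.

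Stronger closing was led by an intronic peak of Fam53b and by one of Dhrs3, a retinal reductase that turns retinal into retinol. At the Dhrs3 peak (chromosome 4, 144908698 to 144909443), WT held 35.3 to 38.8 CPM without LPS (median 35.7) and 27.9 to 32.6 CPM with it (median 30.1). AhR-KO held 36.5 to 40.2 CPM (median 39.3) and 11.7 to 15.4 CPM (median 12.8). The genotypes overlapped without LPS and were apart with it. The LPS effect was -0.27 ± 0.06 in WT, too small for a DAR, and -1.58 ± 0.06 in AhR-KO (interaction -1.31 ± 0.08, adjusted p = 7.31e-13). At the Fam53b peak, closing was deep in both genotypes (-1.79 ± 0.07 in WT and -3.52 ± 0.08 in AhR-KO), leaving a median of 16.2 CPM in WT and 6.43 CPM in AhR-KO with LPS. Over TSSs, Snx24, a sorting nexin of endosomes, had an interaction of -1.0 ± 0.10 and Gprc5c, an orphan G protein-coupled receptor, of -1.19 ± 0.11. At Snx24 the genotypes had like levels without LPS (medians 41.3 and 42.8 CPM), and with LPS the median was 31.6 CPM in WT and 16 CPM in AhR-KO.

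Reversed responses were rare under the rule used, which needs an LPS DAR in both genotypes. Of the 17861 interaction DARs outside the Ahr region, 5550 had fitted LPS effects of opposite sign, mostly without a DAR in both. Of the 325, 128 opened in WT and closed in AhR-KO and 197 did the opposite. An intergenic peak 74.2 kb from the TSS of 4932438A13Rik rose in WT from 1.78 to 2.53 CPM (median 2.18) to 4.94 to 8.99 CPM (median 7.42). In AhR-KO it fell from 1.26 to 2.19 CPM (median 2.00) to 0.936 to 1.54 CPM (median 1.21). Every AhR-KO LPS library lay below every WT library, and the interaction was -2.44 ± 0.23 (adjusted p = 8.18e-09). The opposite case, 96.1 kb from the TSS of Adgb (androglobin), fell from a median of 2.60 to 1.11 CPM in WT and rose from 0.444 to 1.28 CPM in AhR-KO (interaction 2.87 ± 0.28, adjusted p = 9.81e-09). The peak of this kind with the smallest p, 288 kb from the TSS of Mc2r, a melanocortin receptor gene, had an interaction of 2.84 ± 0.26 (adjusted p = 3.36e-09). AhR-KO was lower without LPS at 183 of the 197 peaks of this kind, against 12.5% of all peaks tested outside the Ahr region. Among TSS peaks, the leading reversals were at Ripk4, a kinase of epithelial differentiation (interaction -1.45 ± 0.30, with an adjusted p of 0.0596 once all libraries were thinned to the lowest total count), the olfactory receptor gene Olfr979 (-1.71 ± 0.34) and the vomeronasal receptor gene Vmn1r77 (1.71 ± 0.33).

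Interferon-stimulated genes had the highest share of interaction DARs of the gene lists, all in 1 direction. These are the antiviral effectors and sensors that interferon switches on. Of 164 tested peaks nearest to the 19 list genes with peaks, 57 were interaction DARs (34.8%, against 10.4% of all peaks), and all 57 had a higher LPS effect in AhR-KO. They belonged to 16 of the 19 genes. The median interaction of the 164 peaks was 0.56, against 0.04 over all peaks, 141 were above 0 (86.0%, against 53.7%), and every gene's median was above 0. The median LPS effect over the list was 0.55 in WT and 1.17 in AhR-KO. Of the 57 DARs, 52 were stronger opening, 2 weaker closing and 3 had no LPS DAR, with a median LPS effect of 1.0 in WT and 2.13 in AhR-KO. AhR-KO was the higher genotype with LPS at 35 of them and the lower without LPS at 16, against 13.4 and 12.5% of all peaks. Several of these genes are neighbours, such as the Ifit genes and the pair Oasl1 and Oasl2, and peaks around them are not independent.

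Isg20, an interferon-induced RNA exonuclease, had DARs at 3 of 4 peaks. Over its TSS (chromosome 7, 78911633 to 78915232), WT held 34.7 to 42.5 CPM without LPS (median 36.9) and 47.5 to 56.3 CPM with it (median 53.7). AhR-KO held 26.4 to 30.2 CPM (median 28) and 65.1 to 79.5 CPM (median 72.1). The LPS effect was 0.49 ± 0.06 in WT and 1.36 ± 0.06 in AhR-KO (interaction 0.87 ± 0.08, adjusted p = 3.36e-09). The genotype difference was -0.41 without LPS and 0.46 with it, neither large enough for a DAR, so that it was the response and not either state alone that passed the threshold.

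Of 18 tested TSS peaks of the list, 4 were DARs, those of Isg20, Oasl1, Oasl2 and Ifi44, all higher. Oasl1 and Oasl2 encode proteins related to the 2′-5′ oligoadenylate synthetases. The Oasl1 TSS peak rose from a median of 14.7 to 38.3 CPM in WT and from 12.7 to 53.1 CPM in AhR-KO, and with LPS the genotypes touched (28.9 to 46.0 and 46.0 to 60.0 CPM). Its interaction was 0.84 ± 0.13 (adjusted p = 8.65e-05). Oasl2 had an interaction of 0.96 ± 0.17 and Ifi44 of 1.16 ± 0.21. Over all peaks, DARs were frequent at Oasl1 (6 of 8 peaks), Ifi44 (7 of 12) and Ifit3 (4 of 6), and were also found at the RNA sensors Ifih1 (5 of 15) and Ddx58 (2 of 12), the nucleic acid sensor Zbp1 (5 of 11), the antiviral GTPase Mx1 (5 of 19) and Usp18 (3 of 9), an inhibitor of interferon signalling. The genes with 0 DARs were Gbp3 (of 7 peaks), Oas1a (of 2) and Isg15 (of 1), with median interactions of 0.33, 0.24 and 0.37. Under the other settings tried, the list had 33 to 62 higher and 0 to 2 lower DARs.

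In the promoters of the list, read from RefSeq (GRCm38.p6) as the 250 bases before each gene's start, 10 of 17 matched genes (58.8%) held the ISRE letters GAAANNGAA on either strand, against 8.18% of 27025 genes. The promoters of Isg20, Oasl1, Oasl2 and Ifi44 were among those without a match. Interferon regulatory factors and STATs, the regulators of these genes, did not share the one-sided pattern: 17 of 221 peaks had a lower and 8 a higher LPS effect (11.3% DARs), with 5 higher ones without WT unstimulated replicate 2 or replicate 6. Irf8, which directs macrophage and dendritic cell development, had DARs at 12 of 39 peaks, 10 of them lower. The Irf8 TSS peak held medians of 21.9 and 18.9 CPM in WT without and with LPS and of 24.8 and 14.4 CPM in AhR-KO, with an interaction of -0.62 ± 0.11 (adjusted p = 1.58e-04). It missed the fold threshold at -0.57 without AhR-KO unstimulated replicate 2 and at -0.55 after thinning. An intergenic peak 12.4 kb from Irf4 opened in AhR-KO from a median of 1.42 to 6.66 CPM, while WT was at 8.79 and 10.4 CPM (interaction 1.92 ± 0.29).

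**Figure D3:**
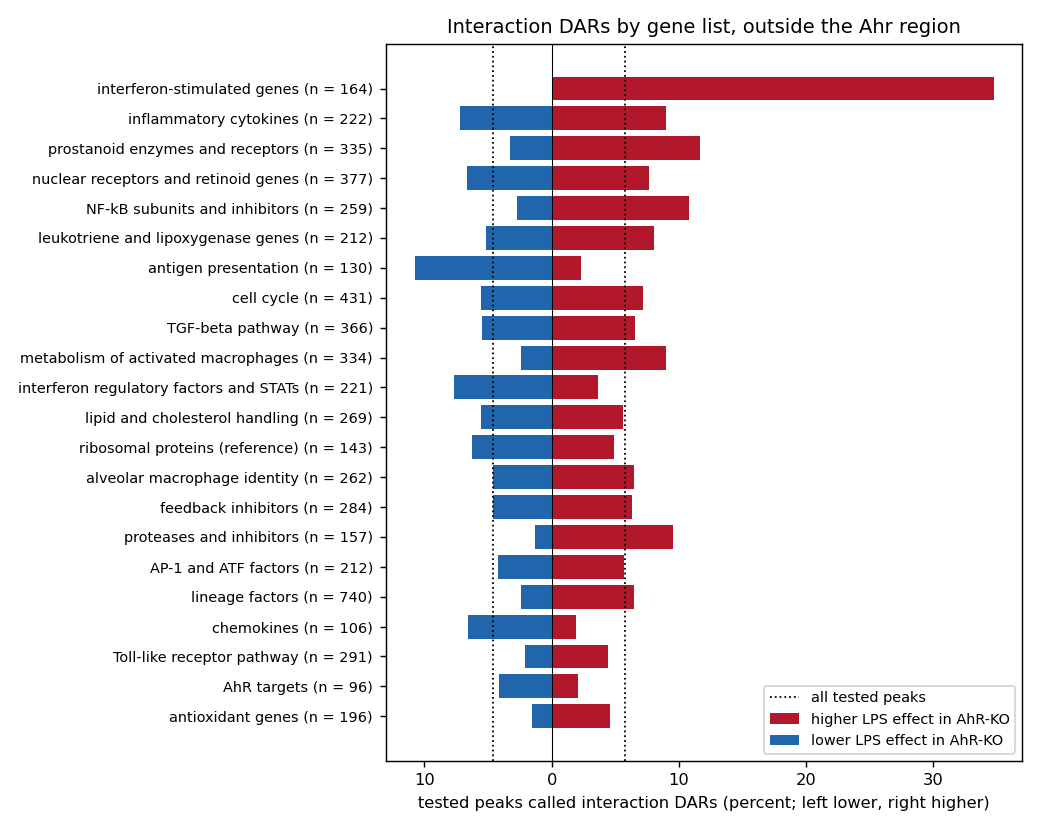
Percent of the tested peaks of each gene list that were interaction DARs, with lower LPS effects in AhR-KO to the left of 0 and higher ones to the right (n, peaks tested). Dotted lines mark all peaks tested outside the Ahr region; the interferon-stimulated genes reach 34.8% to the right with 0 to the left, and antigen presentation genes lie mostly to the left.

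Genes of prostanoid synthesis and sensing, the lipid mediators at the centre of the study, had DARs at 50 of 335 peaks (14.9%), 11 lower and 39 higher, with a median interaction of 0.11. The lower ones numbered 6 without AhR-KO LPS replicate 6 and 7 without AhR-KO LPS replicate 4, AhR-KO unstimulated replicate 1 or 6 or WT LPS replicate 1, and thinning left 5 lower and 12 higher. Of the 140 peaks in or within 5 kb upstream of the gene bodies, 5 were lower and 13 higher. Ptgs2, the inducible cyclooxygenase COX-2, held 15 of the 50 DARs among its 31 peaks, all higher. Over its TSS (chromosome 1, 150099438 to 150100439), WT held 14.1 to 17.4 CPM without LPS (median 15.9) and 27.9 to 33.6 CPM with it (median 30.5). AhR-KO held 9.36 to 11.4 CPM (median 10.2) and 28.3 to 35.1 CPM (median 32.1). AhR-KO thus started below all WT libraries and reached the same range, and the interaction was 0.66 ± 0.09 (adjusted p = 7.88e-06), or 0.58 and just short of the fold threshold after thinning. At an intergenic peak 67.1 kb away, LPS had no effect in WT past the threshold (0.03 ± 0.07), whereas AhR-KO rose from a median of 20.6 to 38.7 CPM (interaction 0.89 ± 0.09, adjusted p = 4.97e-08).

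Other members of the prostanoid group had DARs in both directions. Those of Ptgs1, Tbxas1 and Ptger4 came at a share near the 10.4% of all peaks outside the Ahr region. The constitutive cyclooxygenase gene Ptgs1 had 2 DARs among 20 peaks, both lower. Tbxas1, thromboxane synthase, had 3 of 32, all lower, led by an intronic peak at -0.63 ± 0.11. The prostacyclin synthase gene Ptgis had 4 of 15, all higher. Among receptors for prostaglandin E2, Ptger3 had 6 DARs of 37 peaks, all higher, and Ptger4 9 of 75, 6 of them higher. The TSS peak of Hpgd, which breaks prostaglandins down, closed in WT by -0.83 ± 0.12 but not past the threshold in AhR-KO (-0.19 ± 0.12), with an interaction of 0.64 ± 0.17 (adjusted p = 0.00818). Leaving out AhR-KO unstimulated replicate 2 gave 0.55 and leaving out WT LPS replicate 5 gave 0.58, and thinning gave an adjusted p of 0.107, so that it was no longer a DAR.

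Leukotriene and lipoxygenase genes had DARs at 28 of 212 peaks (13.2%), 11 lower and 17 higher. The higher ones fell to 11 without WT unstimulated replicate 4, and the split was 3 and 7 after thinning and 12 and 14 with DESeq2. Alox5, the 5-lipoxygenase that makes leukotrienes, had 2 DARs among 16 peaks, both lower, and a median interaction of 0.02 over the 16. The DAR with the smallest p of the list lay in an intron of Alox5 (chromosome 6, 116455633 to 116456315). WT held 29.9 to 34.1 CPM without LPS (median 31.8) and 17.3 to 22.1 CPM with it (median 20.4). AhR-KO held 29.1 to 33.1 CPM (median 30.2) and 7.04 to 8.65 CPM (median 7.41). The genotypes overlapped before LPS, and after it every AhR-KO library was below every WT library. The LPS effect was -0.67 ± 0.06 in WT and -2.0 ± 0.07 in AhR-KO, an interaction of -1.34 ± 0.09 (adjusted p = 3.16e-12). Pla2g4a, the phospholipase that releases arachidonic acid, had 12 DARs among 80 peaks, all higher, which made up 12 of the 17 higher ones of the list. One of these, 102 kb from the Pla2g4a TSS, rose from a median of 1.67 to 7.55 CPM in WT and from 1.75 to 23.2 CPM in AhR-KO (interaction 1.47 ± 0.20, adjusted p = 2.82e-06). Peaks of 1 locus can open together and are not independent. The leukotriene A4 hydrolase gene Lta4h had 3 lower and 1 higher DAR among 20 peaks.

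Inflammatory cytokines had DARs at 36 of 222 peaks (16.2%), 16 lower and 20 higher, a split that became 20 and 18 with relative log expression scaling and 11 and 7 after thinning. Il6 had 10 DARs among 36 peaks, 4 lower and 6 higher. Besides Il1a, the TSS peak of Il6 had a lower LPS effect in AhR-KO. It held 7.13 to 8.05 CPM in WT without LPS (median 7.98) and 14.8 to 19.2 CPM with it (median 18), while AhR-KO held 11.5 to 13.5 CPM (median 12) and 15 to 22.2 CPM (median 17.2). The genotypes were apart only without LPS, and the interaction was -0.64 ± 0.12 (adjusted p = 2.40e-04). It was -0.41 after thinning, with an adjusted p of 0.0779. The start of Il1rn, which encodes the antagonist of the IL-1 receptor, went the other way: it opened by 2.64 ± 0.13 in WT and 3.49 ± 0.12 in AhR-KO (interaction 0.85 ± 0.19, adjusted p = 0.00203, and 0.115 after thinning). A peak 17.1 kb from Il12b, a subunit of IL-12 and IL-23, reversed from -0.61 ± 0.12 in WT to 0.79 ± 0.13 in AhR-KO.

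Chemokines had DARs at 9 of 106 peaks (8.49%), 7 lower and 2 higher. At the start of Ccl22, a ligand of CCR4, LPS raised the median from 4.01 to 14.4 CPM in WT and from 6.62 to 14.3 CPM in AhR-KO (interaction -0.87 ± 0.19, adjusted p = 0.00247). The start of Ccl17, the other ligand of CCR4, had a lower LPS effect too (-0.96 ± 0.26, adjusted p = 0.0133). Ccl5, an interferon- and NF-kB-dependent chemokine, had a TSS peak that was nearly closed before LPS in both genotypes (0 to 0.436 CPM) and reached 3.33 to 8.70 CPM in WT and 11.6 to 15.2 CPM in AhR-KO. Its interaction was 1.64 ± 0.52 (adjusted p = 0.0289), with an adjusted p of 0.0798 without WT unstimulated replicate 2 and of 0.0501 without WT unstimulated replicate 4.

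NF-kB subunits and inhibitors had DARs at 35 of 259 peaks (13.5%), 7 lower and 28 higher. The higher ones numbered 21 to 28 with 1 library left out. Of the 115 peaks in or within 5 kb upstream of their gene bodies, 5 were lower and 9 higher, a less one-sided split. Nfkb1, which encodes p105 and p50, held 16 of the 35 DARs among 50 peaks, 14 higher. Nfkbiz, an inducible nuclear regulator of NF-kB, had 5 of 52, all higher, a share near the 10.4% of all peaks outside the Ahr region. None of the 17 TSS peaks of the list was a DAR, but only 3.61% of all TSS peaks outside the Ahr region were, so this does not set the list apart. An intergenic peak 85.0 kb from the TSS of Nfkb1 went from a median of 7.51 to 9.77 CPM in WT and from 5.67 to 14 CPM in AhR-KO (interaction 0.96 ± 0.13, adjusted p = 6.96e-06). At Tnfaip3, which encodes the NF-kB inhibitor A20, an intronic peak instead had a lower LPS effect (-0.66 ± 0.10), with medians of 23.8 and 47.2 CPM in WT and of 40.6 and 46.9 CPM in AhR-KO.

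In the Toll-like receptor pathway, 19 of 291 peaks were DARs (6.53%), 6 lower and 13 higher. Tlr4, the receptor for LPS, had 7 of 101, all higher, a share below the 10.4% of all peaks outside the Ahr region. Feedback inhibitors had 31 of 284 (10.9%), 13 lower and 18 higher, or 10 and 10 after thinning, and of the 69 peaks in or within 5 kb upstream of their gene bodies 2 were lower and 1 higher. Socs2, an inhibitor of cytokine receptor signalling, had 3 of 14, all lower, led by an intergenic peak at -1.30 ± 0.16. Zc3h12a, an RNase that degrades cytokine mRNA, had 3 of 27, all higher, a share near that of all peaks. AP-1 and ATF factors had 21 of 212 (9.91%), with 9 lower and 12 higher that became 13 and 10 with relative log expression scaling. Without AhR-KO unstimulated replicate 4 the lower ones were 15, and by gene body there were 0 lower and 4 higher. An intronic peak of Atf3, a repressor induced by stress and LPS, rose from a median of 2.25 to 4.76 CPM in WT and from 2.4 to 10.7 CPM in AhR-KO (interaction 1.09 ± 0.16, adjusted p = 2.17e-05).

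At antigen presentation genes most DARs were lower: of 130 peaks, 17 were DARs (13.1%), 14 lower and 3 higher, and the median interaction was -0.17. The lower ones fell to 9 without AhR-KO unstimulated replicate 6. Of the 102 peaks in or within 5 kb upstream of the gene bodies, 9 were lower and 4 higher, a less one-sided split. DARs were found at 5 of 13 peaks of Ciita, the master regulator of MHC class II, at 3 of 6 of H2-Aa, 2 of 7 of Cd74 and 3 of 20 of Nlrc5, the regulator of MHC class I, all of them lower. The TSS peaks of Ciita and H2-Aa had calls that were lost in many of the fits with 1 library left out, and are not described further. The Nlrc5 peak with the smallest p held 10.7 to 13.4 CPM in WT without LPS (median 12.3) and 10.4 to 15.7 CPM with it (median 13.1). In AhR-KO it fell from 11.8 to 14.7 CPM (median 13.7) to 7.13 to 9.24 CPM (median 7.31), below all other libraries, for an interaction of -0.90 ± 0.13 (adjusted p = 1.11e-05). Cd80 (1 of 10) and Cd86 (2 of 17), the costimulatory ligands, held the 3 higher DARs. The summed dendritic cell marker levels given above were lower in AhR-KO LPS than in WT LPS, and the part of these cells in the list was not tested. Single markers differed in this. Without LPS, Flt3 was already lower in AhR-KO (means of 9.07 CPM in WT and 4.09 CPM in AhR-KO), and so was Ccr7 (0.940 and 0.551 CPM). Zbtb46 was higher (21.6 and 25.1 CPM).

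Genes of macrophage metabolism had DARs at 38 of 334 peaks (11.4%), 8 lower and 30 higher. Nos2, the inducible nitric oxide synthase, had 6 of 17, all higher. Over its TSS, WT held 0.891 to 1.70 CPM without LPS (median 1.44) and 2.81 to 4.16 CPM with it (median 3.45), and AhR-KO 0.878 to 1.89 CPM (median 1.37) and 5.99 to 15.6 CPM (median 10.0). The genotypes overlapped before LPS only. The interaction was 1.60 ± 0.35 (adjusted p = 0.00246). The glucose transporter gene Slc2a1 had 5 of 20, all higher. Antioxidant genes had 12 of 196 (6.12%), 3 lower and 9 higher, with a Gclm intron peak at 1.16 ± 0.21. Proteases and their inhibitors had 17 of 157 (10.8%), 2 lower and 15 higher, but by gene body 1 lower and 4 higher of 79 (6.33%). Of the 15, 8 belonged to Serpinb2, an inhibitor of plasminogen activators. Its TSS peak opened by 2.96 ± 0.13 in WT and 3.90 ± 0.13 in AhR-KO.

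Nuclear receptors and retinoid genes had DARs at 54 of 377 peaks (14.3%), 25 lower and 29 higher, or 29 and 24 with relative log expression scaling, 19 and 11 with a mean count of at least 50, and 18 and 7 when peaks were assigned by gene body. Rxra, the shared partner of many nuclear receptors, had 10 of 24, all lower, its TSS peak at -0.74 ± 0.16 (adjusted p = 0.00127), or -0.51 with an adjusted p of 0.0950 after thinning. Nr3c1, the glucocorticoid receptor, had 9 of 69, all higher, led by an intergenic peak that closed in WT from a median of 7.18 to 1.65 CPM and stood at 0.938 and 0.935 CPM in AhR-KO. Lineage factors had 66 of 740 (8.92%), 18 lower and 48 higher. Mitf, a relative of TFE3, held 10 of 87, all higher, a share near the 10.4% of all peaks outside the Ahr region.

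Among genes of alveolar macrophage identity, 29 of 262 peaks were DARs (11.1%), 12 lower and 17 higher (17 and 17 with relative log expression scaling, 13 and 9 after thinning), and 10 of the higher ones lay around the scavenger receptor gene Cd36 (10 of 38 peaks). The TSS peak of the fatty acid-binding protein gene Fabp5 went from medians of 34 to 21.4 CPM in AhR-KO but from 30.1 to 29.9 CPM in WT (interaction -0.63 ± 0.08, adjusted p = 8.97e-07), and the interaction was -0.51, short of the fold threshold, after thinning. Lipid and cholesterol handling had 15 lower and 15 higher DARs of 269 peaks (11.2%), and 10 of the higher ones were the same Cd36 peaks. The split was 20 and 15 with relative log expression scaling and 11 and 4 with a mean count of at least 50, and the lower ones fell to 9 without WT unstimulated replicate 2. The TGF-β pathway had 20 lower and 24 higher of 366 (12%; 22 and 21 with relative log expression scaling, 8 and 7 by gene body). Cell cycle genes had 24 lower and 31 higher of 431 (12.8%; 9 and 6 by gene body), with both TSS peaks of Myc that were DARs among the lower ones (-0.69 ± 0.10 and -0.65 ± 0.10). The ribosomal protein genes, taken as a reference with no role in the response, had 9 lower and 7 higher of 143 (11.2%). Around the macrophage markers, 16 of 76 peaks (21.1%) were DARs, 13 lower and 3 higher, and around the alveolar macrophage markers 7 of 118 (5.93%).

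Classical AhR targets showed few interaction DARs, 6 of 96 peaks (6.25%), 4 lower and 2 higher. Cyp1a1 had 0 of 3, Cyp1b1 1 of 16, and Aldh3a1 and Nqo1 0 of 6 and 0 of 7. Ahrr, the AhR repressor, had 3 of 10, all lower. Its intronic peak 32 kb from the TSS (chromosome 13, 74259552 to 74261092) held 42.5 to 49.1 CPM in WT without LPS (median 44.7) and 29.8 to 43.3 CPM with it (median 36.9), and in AhR-KO 29.3 to 32.9 CPM (median 30.7) and 13.9 to 19 CPM (median 15.9). AhR-KO was below WT in both states with no overlap, and further below with LPS. The interaction was -0.63 ± 0.10 (adjusted p = 5.99e-05), and it missed the fold threshold at -0.58 without WT LPS replicate 1 and at -0.57 after thinning. Tiparp, an AhR-induced ADP-ribosyltransferase, had 2 higher DARs of 26 peaks.

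Some single genes collected many DARs of one kind. Slco3a1, an organic anion transporter, had the most stronger responses, 33 of 109 peaks, 32 of them opening, with a median LPS effect over these DARs of 0.66 in WT and 1.74 in AhR-KO. Inhba, which encodes the activin A subunit, followed with 23 of 164 (19 opening) and Flrt2, an adhesion protein, with 18 of 78 (16 opening). Most weaker responses were found at Cdkal1, a tRNA-modifying enzyme (10 of 64, 8 opening), at Rapgef5, an exchange factor for Rap (10 of 115, 6 closing), and at St6galnac3, a sialyltransferase (9 of 52, 8 opening, median LPS effect 1.67 in WT and -0.16 in AhR-KO). Rftn1, a lipid raft protein, had 3 reversed responses, all closing in WT and opening in AhR-KO, and Cxxc5 had 2. The genes have many peaks, and those of 1 locus can open together.

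Short motifs under the peaks differed between the classes. Shares are of the central 300 bases of 171863 peaks outside the Ahr region, on either strand, and are compared with peaks that opened or closed in WT without an interaction DAR. NF-kB letters lay in 2.52% of weaker opening peaks, 1.65% of peaks that opened in WT without interaction and 0.839% of stronger opening peaks, against 1.02% of all peaks. STAT letters lay in 19, 13 and 11.1% (11% of all), but over whole peaks the last pair changed order (32.5, 23.7 and 24.4%). They also lay in 15.1% of stronger closing peaks, against 10.6% of peaks that closed in WT without interaction. AP-1 letters were most frequent at opening without interaction (36.9%) and less so at stronger (29.3%) and weaker opening (21.9%), against 18.1% of all. Among closing peaks, RUNX letters lay in 44.5% of the weaker, 32.4% of those without interaction and 34.5% of the stronger class (27.5% of all), and PU.1 letters in 15.4, 13.9 and 9.87% (7.50% of all). C/EBP letters had the opposite order, 11.1, 18.2 and 19.8% (15.8% of all). The AhR core lay in 12.8% of weaker closing peaks, 13.7% of peaks that closed in WT without interaction and 17.9% of stronger closing peaks. Among opening peaks its shares were 13.3, 12.3 and 12.7% in the same order, against 16.3% of all peaks. The ISRE lay in 9.17 to 12.1% of the 4 weaker and stronger classes and in 10.9% of all peaks. Over TSSs the AhR core lay in 39.6% of stronger closing peaks, 33.2% of peaks that closed in WT without interaction and 46.5% of all peaks. A match in these windows shows letters and not a bound factor.

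**Figure D4:**
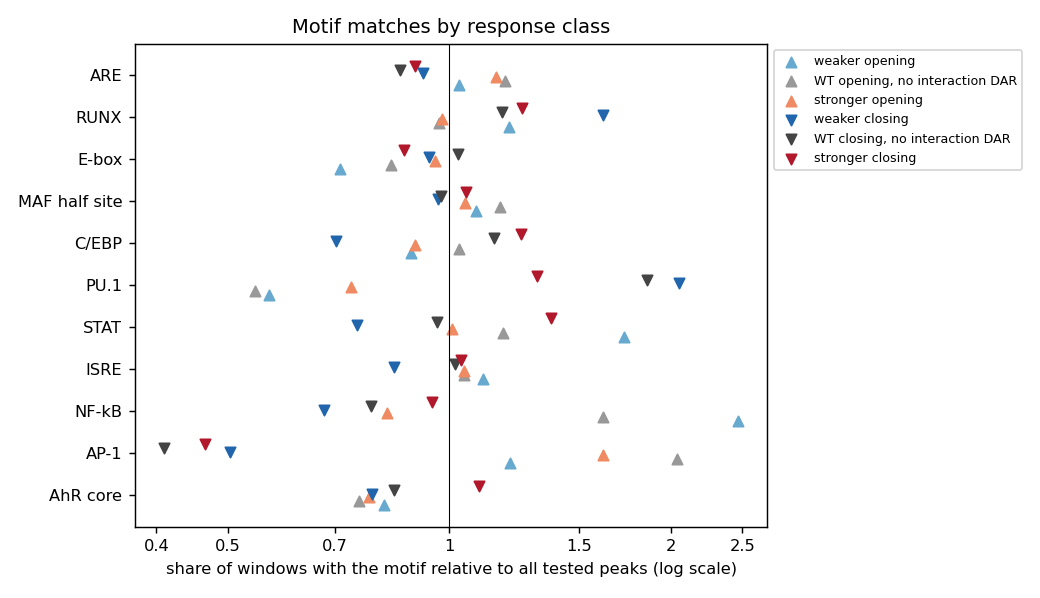
Share of central windows that hold each motif, divided by the share over all peaks tested outside the Ahr region (x axis, log scale; 1, equal), for the weaker and stronger classes and for peaks that opened or closed in WT without an interaction DAR; upward triangles are opening and downward triangles closing peaks. Of these, NF-kB and STAT letters lie furthest right in weaker opening, and RUNX and PU.1 letters in weaker closing; reversed peaks are not drawn.

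The region around Ahr was set apart because AhR-KO mice carry, next to the targeted allele, sequence of the strain in which it was made, and effects of that sequence and of receptor loss cannot be told apart there. Within it, 271 of 2243 peaks (12.1%) were interaction DARs, 92 lower and 179 higher, against 10.4% elsewhere. The share was 14% within 5 Mb of Ahr, 13.6% at 5 to 10 Mb, 9.51% at 10 to 15 Mb, 9.76% at 15 to 20 Mb and 10.6% on the rest of chromosome 12. Genotype DARs without LPS fell more steeply with distance, from 35.8% within 5 Mb to 22% on the rest of the chromosome.

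Within the Ahr gene (35497974 to 35535038), 9 of 13 tested peaks were interaction DARs, all higher, with a median interaction of 1.36 over the 13. The first of these by p, an intronic peak at 35520140 to 35521857, held 0.883 to 1.78 CPM in WT without LPS (median 1.32) and 1.03 to 1.35 CPM with it (median 1.15). In AhR-KO it held 1.96 to 2.88 CPM (median 2.41) and 10.4 to 19.4 CPM (median 15.5). The AhR-KO LPS libraries were far above all others, and the interaction was 2.81 ± 0.23 (adjusted p = 4.13e-10). The TSS peak of Ahr was no DAR of the interaction (0.32 ± 0.11), with means of 22.5 ± 1.67 and 20.1 ± 1.19 CPM in WT (SD, n = 6) and of 13.2 ± 1.2 and 14.7 ± 1.84 CPM in AhR-KO. Accessibility of the gene does not show whether the protein was lost.

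Elsewhere in the region, an intergenic peak 52.4 kb from Ccdc71l rose from a median of 8.91 to 19.9 CPM in WT and from 0.513 to 6.46 CPM in AhR-KO (interaction 2.59 ± 0.22, adjusted p = 4.13e-10). An intronic Hdac9 peak, with the start of Prps1l1 as its closest TSS, reversed, with medians of 1.90 and 7.45 CPM in WT and of 7.55 and 4.29 CPM in AhR-KO (interaction -2.69 ± 0.18, adjusted p = 2.31e-12). A peak 36.6 kb from Nampt, the rate-limiting enzyme of NAD salvage, closed by -0.89 ± 0.06 in WT and -1.99 ± 0.06 in AhR-KO.

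**Figure D5:**
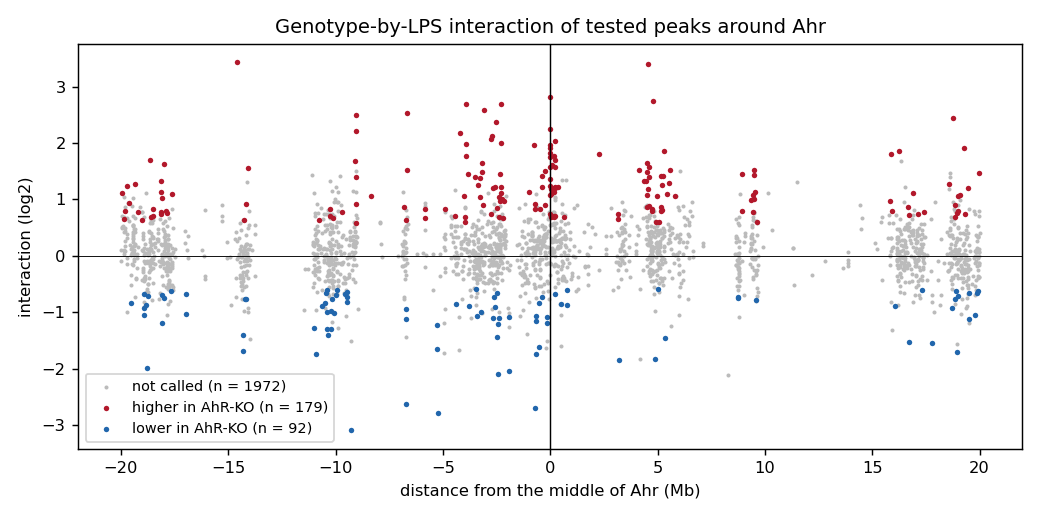
Interaction (y axis, log2) of the 2243 tested peaks by distance from the middle of Ahr (x axis, Mb), with the 179 higher DARs in red, the 92 lower ones in blue and other peaks in grey. A column of higher DARs stands at Ahr itself, and DARs of both directions extend over the whole window.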

How the data were processed

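ATAC-seq libraries were grouped by genotype and treatment as the labels give them, 4 groups of 6. The deposited table held raw counts of read pairs per consensus peak, counted by the authors with featureCounts 2.0.1 after alignment to mm10 in nf-core/atacseq (per the file headers, with multi-overlap counting and a minimum overlap of 0.2). Broad peaks were called per library with MACS2, and the deposited lists give their -log10 q-values, used here only to count the libraries in which a peak was called. Submitters' processing notes also name bcl2fastq 2.20.0.

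Counts were analysed with edgeR 4.0.16 in R 4.3.3: filterByExpr by group, TMM, trended dispersion, a quasi-likelihood fit with robust estimation over all 24 libraries with the group as the only term, and two-sided tests adjusted by the Benjamini-Hochberg method over 174193 peaks. Every adjusted p is from this fit unless DESeq2 1.42.0 is named. An SE is the log2 effect divided by the square root of F. Scripts were tested on simulated data. No pair of libraries in a group agreed within sampling noise. The methods state 6 animals a group, but the labels do not tie libraries to animals, and p-values measure the spread between libraries. Total counts of 8.54 to 34.6 M in peaks set the precision.

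Peaks were assigned to the nearest TSS of 21911 protein-coding genes (GENCODE basic, GRCm38). Peaks over a TSS span it. The lists, classes and rules were chosen with earlier results of these data known. Named were the TSS peaks (2) and other peaks (2) with the smallest p per class, the DAR with the smallest p in each direction of each list and of the Ahr region, TSS peaks of list members, and the genes with most DARs. Genes given by their counts of DARs, and Bst2 and Alox5 sequences, were picked after their values were seen. Motif matches count letters on either strand.

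Alternatives covered scaling, filters, thinning, a replicate block, DESeq2, thresholds, peak assignment and each library left out. Without both libraries of WT replicate 6, chosen after the data were seen because both were at 0 counts over part of chromosome Y, 16724 interaction DARs were called.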

Additional observations from a re-analysis of the deposited data

Results flagged for a closer look

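The LPS effect differed between genotypes by the test of the interaction itself at 18132 peaks, which are the subject of the report.

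Of 372 groups of 6 libraries at the named peaks, 15 held a library far from the other 5. The nominal rate of the rule is about 1 in 20, and its rate in these data was not measured. Without LPS in WT, replicate 1 was the lowest at Il6 (7.13 CPM, the next 7.91) and Socs2 (1.65 and 2.44), replicate 5, the shallowest library, was the lowest at Tjp1 (9.77 and 13.8) and the highest at Hmgcs1 (43.5 and 41.5), and replicate 3 was the highest at Dhrs3 (38.8 and 36.4). In AhR-KO without LPS, replicate 1 was the lowest at Tjp1 (3.86 and 5.65) and replicate 4 at 4932438A13Rik (1.26 and 1.84). In WT with LPS, replicate 3 was the lowest at Inpp4a (4.62 and 6.24) and replicate 6 at Hmgcs1 (9.26 and 12), while replicate 2 was the highest at Ets1 (28.2 and 25.6) and replicate 5 at Tiparp (1.77 and 1.32). In AhR-KO with LPS, replicate 5 was the highest at Tbxas1 (17.3 and 14.2), Nlrc5 (9.24 and 7.57) and Rpl5 (2.04 and 1.18), and replicate 3 at a TSS peak of Myc (12.1 and 10.2). All values are CPM with the nearest library second.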

How the results depend on the processing

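Outside changes of threshold, filter and depth, the number of interaction DARs stayed within 1.5 times 18132: 18234 with relative log expression factors, 17935 without factors, 18292 without the low-count filter, 18109 with DESeq2 and 16234 to 20743 with 1 library left out. Of the main DARs, 91.8% were shared with relative log expression factors and 89.5% with DESeq2. The lower ones were 44.0% of DARs in the main fit, 52.5% with relative log expression factors, 53.5% with DESeq2 and 42.2 to 49.8% with 1 library left out, where the median interaction of all peaks moved by -0.048 with both other scalings. A replicate block over the 4 groups gave 19896 and a replicate block within genotype 23406 interaction DARs. The labels do not say that a number marks a shared animal, and libraries with the same number correlated at 0.09 to 0.44 within WT, 0.02 to 0.30 within AhR-KO and -0.21 to 0.38 across genotypes, and not every library matched its own number best, so the numbers were not used as pairs.

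With a mean count of at least 50, there were 9594 interaction DARs, 4013 of them higher and 58.2% lower, 34927 LPS DARs in WT and 39501 in AhR-KO, 16684 genotype DARs without and 16531 with LPS, and 2542 weaker, 5813 stronger and 75 reversed responses. That filter removes peaks from the test. With counts thinned to the lowest total there were 8568 DARs (4298 lower, 4270 higher), 2518 weaker, 5086 stronger and 199 reversed responses, and 30313 genotype DARs with LPS, which shows how far depth limits the calls. A fold of at least 2 left 8862 (3525 lower, 5337 higher), no fold threshold gave 12801 lower ones, and reversal by sign alone 5550. Of 93 named peaks, 75 kept their call in each setting in which they were tested and none changed sign, while 78 were tested with a mean count of at least 50 and 88 after thinning. With 1 library left out, chemokines had 1 to 4 higher, AhR targets 1 to 3 higher, antioxidant genes 2 to 5 lower, proteases and inhibitors 1 to 3 lower and ribosomal protein genes 5 to 11 lower DARs.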
